A study of Mus musculus with 24 samples.

Results

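The glycolysis enzymes examined here were 10 genes, taken by symbol from the 37310 genes of the deposited tables: the hexokinases Hk1 and Hk2, the phosphofructokinase subunits Pfkl, Pfkm and Pfkp, the regulatory enzyme Pfkfb3, the aldolase Aldoa, the phosphoglycerate kinase Pgk1 and the lactate dehydrogenase subunits Ldha and Ldhb. Hk2 had been selected on its day 8 FPKM, because its response to epigallocatechin gallate (EGCG), the main catechin of green tea, ran in opposite directions in brown and white cells on day 8. Its day 8 values are therefore given as a description, with no test, and Hk2 is left out of the counts of every comparison that uses them. All 10 genes passed the filter on low values.

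Stromal vascular cells, the mixed fraction of fat tissue that contains adipocyte precursors, came from C57BL/6 mice aged 6 weeks, from the white fat of the groin (inguinal white adipose tissue, WAT) and from the brown fat between the shoulder blades (interscapular, BAT). Precursors of both depots received the same induction medium with insulin, dexamethasone and 3-isobutyl-methylxanthine for 4 days, followed by a medium with insulin and the thyroid hormone T3 for another 4 days. EGCG or its solvent DMSO (control) was added, and total RNA was sequenced on day 4 and day 8, which gave 8 groups (2 depots, 2 days, with or without EGCG) of 3 libraries. The labels state neither the dose of EGCG nor whether replicates came from separate animals or cultures, so the p-values measure the spread between these libraries, which may be technical.

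Glycolysis breaks glucose down to pyruvate in the cytosol. Hexokinases trap glucose as glucose phosphate, phosphofructokinase commits the sugar to the pathway, aldolase splits it, phosphoglycerate kinase makes ATP, and lactate dehydrogenase exchanges pyruvate and lactate. In adipocytes the pathway supplies glycerol phosphate and acetyl units for fat synthesis, glucose enters mainly through the insulin-regulated transporter GLUT4 once the cells are mature, and brown adipocytes are known for high glucose uptake. Several of these enzymes are textbook targets of the hypoxia-inducible factors, which bind DNA at the core letters ACGTG. The same letters form part of CACGTG, a form of the E box.

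Because of that background, the 250 bases before the RefSeq transcript start (build GRCm38.p6) were searched for ACGTG on both strands, so that a CACGTG counts as overlapping matches, 1 on each strand. The motif was found in 9 of the 18 promoters of the members and in at least 1 promoter of 6 of the 10 genes (Hk2, Pfkm, Pfkfb3, Aldoa, Pgk1 and Ldha), while 18.5% of all 27025 genes had such a promoter. Among the 9, promoters 1 and 2 of Aldoa overlap and hold the same site. The 10 members had 18 promoters and all 27025 genes had 32851, so the members had more promoters per gene in which a match could occur. Of all 32851 promoters of that length, 16.6% held it, and 6.02% held CACGTG. A match is a description of letters and not a binding site, and its absence from this window says nothing about the factor. Promoters of the 2 lactate dehydrogenase genes, whose levels moved differently on day 4, and those of Hk2 and Pgk1 are printed with the matches in capitals. Ldha (chr7:46845554-46845803, plus strand) held the motif at 3 places, 2 of them CACGTG, which makes 5 matches over both strands. At least 3 matches, counted in the same way over both strands, occurred in 1.22% of all promoters. The other Ldha promoter (chr7:46846832-46847081, plus strand), which is not printed, held none. Ldhb (chr6:142507958-142508207, minus strand) held none. Hk2 (chr6:82774455-82774704, minus strand) and Pgk1 (chrX:106186850-106187099, plus strand) each held 2. The promoters of Hk1, Pfkl and Pfkp, not printed, held none. With EGCG in WAT on day 4 these genes rose 4.32-fold, 4.01-fold and 2.48-fold. Pfkfb3, with a CACGTG before one of its starts, did not pass the test there. A link between the motif and the response was not tested.
Ldha: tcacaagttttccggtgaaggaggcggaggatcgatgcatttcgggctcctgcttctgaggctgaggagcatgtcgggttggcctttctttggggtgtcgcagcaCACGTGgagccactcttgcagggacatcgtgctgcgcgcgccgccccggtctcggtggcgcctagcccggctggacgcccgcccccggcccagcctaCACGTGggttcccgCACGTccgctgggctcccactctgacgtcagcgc
Ldhb: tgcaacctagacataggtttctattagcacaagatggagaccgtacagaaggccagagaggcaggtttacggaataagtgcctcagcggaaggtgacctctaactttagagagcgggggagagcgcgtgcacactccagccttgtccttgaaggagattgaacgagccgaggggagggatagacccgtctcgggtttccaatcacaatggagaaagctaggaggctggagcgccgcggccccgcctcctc
Hk2: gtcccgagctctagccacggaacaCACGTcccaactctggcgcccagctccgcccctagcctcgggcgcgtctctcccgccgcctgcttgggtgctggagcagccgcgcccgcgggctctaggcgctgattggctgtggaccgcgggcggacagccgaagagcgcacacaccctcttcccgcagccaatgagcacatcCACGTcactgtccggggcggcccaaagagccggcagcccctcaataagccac
Pgk1: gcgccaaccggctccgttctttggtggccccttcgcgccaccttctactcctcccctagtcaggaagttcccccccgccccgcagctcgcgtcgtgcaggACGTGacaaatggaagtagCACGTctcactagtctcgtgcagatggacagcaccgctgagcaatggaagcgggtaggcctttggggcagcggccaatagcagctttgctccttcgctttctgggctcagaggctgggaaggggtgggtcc

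In the build of the deposited values, mm9 (NCBIM37, GENCODE vM1 annotation), all 10 were protein-coding genes and each value covered the whole gene. Hk1 lay on chromosome 10 from 61731603 to 61842656 and Pfkl on the same chromosome from 77449692 to 77472828. Hk2 lay on chromosome 6 from 82675019 to 82724448 and Ldhb on the same chromosome from 142438769 to 142456477. Aldoa (133938748 to 133944265) and Ldha (54096845 to 54110997) were on chromosome 7. Pfkm was on chromosome 15 (97923020 to 97962878), Pfkp on chromosome 13 (6579014 to 6648023), Pfkfb3 on chromosome 2 (11393057 to 11423728) and Pgk1 on chromosome X (103382439 to 103399038). Hk1, Hk2, Pfkm and Pfkp overlap a gene on the opposite strand, and whether the counting used the strand is not given in the sources used here. Copies of at least 90% identity over at least 50% of the coding sequence were found in the genome for Ldha (6), Aldoa (5), Pgk1 (2, both at 100%) and Ldhb (1), so reads of those 4 genes could have been shared or discarded, and their levels are less certain than those of the other 6.

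Reads assigned to genes numbered 39452696 to 52893848 in the 16 libraries of replicates 1 and 2. In the 8 of replicate 3, deposited in a separate table, they numbered 16392420 to 41675645. Between 511 and 162938 reads stood behind each value of a member, so counting error was small. In WAT day 8 EGCG replicate 3, 61.0% of the reads fell on 5 genes, against 3.64% to 10.5% elsewhere, and its median-ratio size factor was 0.41. FPKM of all other genes are low in that library, and its values are given both as deposited and after median-ratio scaling. Tests used replicates 1 and 2, and replicate 3 gave direction only. Replicates 1 and 2 of the WAT day 8 control also stood apart from each other: over genes with at least 100 reads in the pair, their reads differed by a chi-square of 71.3 per gene, against 4.76 to 11.7 in the other groups. Of the genes of depot identity, Hoxc10 and Zic1 matched the labels in every group. Hoxc10 averaged 6.32 to 11.9 FPKM in the WAT groups and at most 0.0292 in BAT. Zic1 averaged 3.81 to 10.8 FPKM in the BAT groups and at most 0.146 in WAT. Others were less clear: Lhx8, a brown identity gene, averaged 18.4 FPKM in the WAT day 4 control and 10.3 in the BAT day 8 control. Hoxc8, a white identity gene, reached 8.62 FPKM in BAT. Between the controls, 4 of 8 brown identity genes were called higher in BAT on day 4 and 8 on day 8, beside 41.4% and 31.6% of all genes. Of 5 white identity genes, 3 were tested, and all were lower in BAT on both days, beside 14.4% and 22% of all genes. The maturing cells carried adipocyte markers, and the 12 markers of mature adipocytes summed to 11156 to 11242 FPKM in the BAT day 8 control. Ucp1, the defining gene of thermogenic brown fat, averaged 6.56 FPKM there and was listed at 0 in replicates 1 and 2 of the WAT day 8 control and of BAT day 8 with EGCG.

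**Figure D1:**
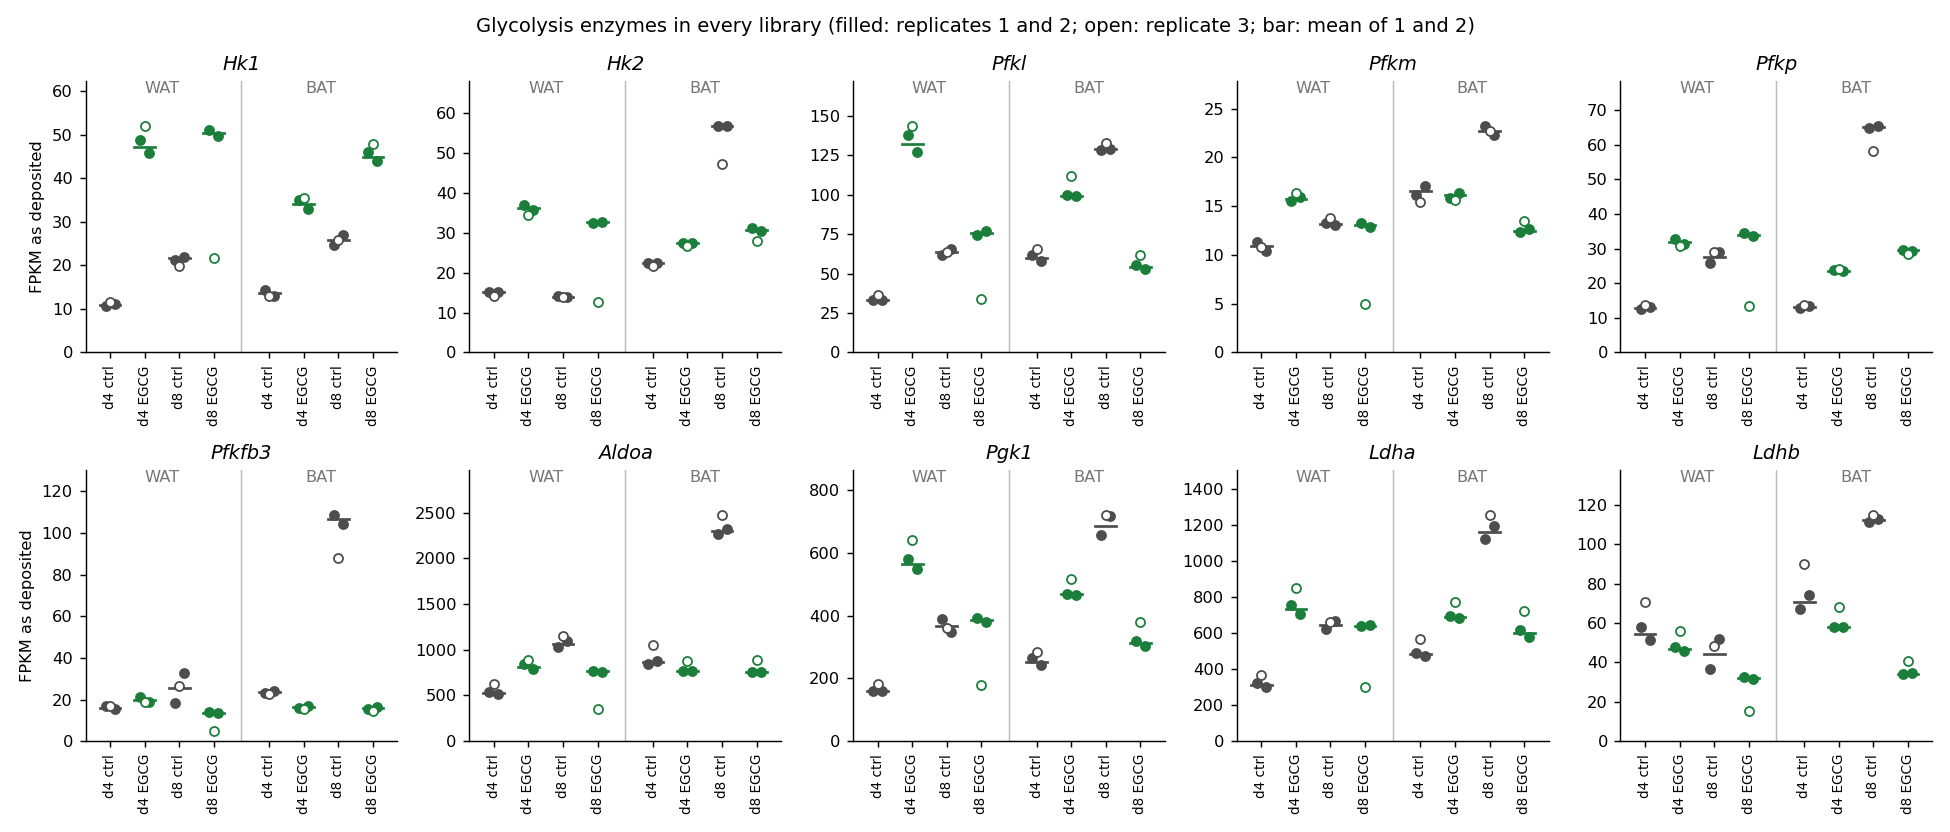
FPKM as deposited (vertical axis, from 0) of the 10 glycolysis enzymes in the 8 groups, with controls in grey and EGCG in green. Filled points are replicates 1 and 2, open points replicate 3, and bars the mean of replicates 1 and 2. For 8 of the 10 genes the BAT day 8 control is the highest group, among them Hk2, which was chosen on its day 8 values. The low open point in the WAT day 8 EGCG group is the library with 61.0% of its reads on 5 genes.

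Hexokinase 2 is the insulin-responsive isozyme of muscle and fat. In the WAT day 4 control, Hk2 stood at 15.3, 15.3 and 14.1 FPKM in replicates 1, 2 and 3, and with EGCG at 37.1, 35.7 and 34.6 FPKM. BAT cells of the same day had 22.6, 22.6 and 21.6 FPKM in the control and 27.4, 27.5 and 26.7 FPKM with EGCG. The treated libraries were above the control libraries in both depots, with no overlap, and the step was larger in WAT. The WAT day 8 control held Hk2 at 14.1, 14.0 and 13.9 FPKM, and the treated cells at 32.5, 32.8 and 12.7 FPKM as deposited. After median-ratio scaling the last of these was 31.1 FPKM, beside 29.4 and 29.9 in the other treated libraries and 14.8 to 15.3 in the controls. The BAT control of that day had 56.8, 56.7 and 47.4 FPKM, and the EGCG libraries 31.2, 30.4 and 28.0. These day 8 values are the ones on which Hk2 was chosen: in WAT the treated cells were 2.33-fold above the control, in BAT the control was 1.84-fold above the treated cells, and the difference of the EGCG effects was -2.03 on the log2 scale. No threshold was stated for that choice, so no gene stands just inside or outside it. The order of the group means, from the lowest, was WAT day 8 control, WAT day 4 control, BAT day 4 control, BAT day 4 EGCG, BAT day 8 EGCG, WAT day 8 EGCG, WAT day 4 EGCG and BAT day 8 control. No neighbours in that order overlapped in replicates 1 and 2, and only the first 2 overlapped once replicate 3 was added after scaling.

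Hexokinase 1, the broadly expressed isozyme, was higher with EGCG everywhere. It went from 10.8, 11.1 and 11.6 FPKM in the WAT day 4 control to 48.7, 45.8 and 51.9 FPKM with EGCG. BAT day 4 cells held 14.2, 13.1 and 12.9 FPKM without EGCG and 34.9, 33.0 and 35.5 FPKM with it. On day 8 the WAT control had 21.3, 21.9 and 19.9 FPKM, and the treated WAT cells 51.0, 49.7 and 21.6 FPKM, the last being 52.7 FPKM after scaling. The treated groups thus stood clear of their controls, and the treated WAT groups of day 4 and day 8, the highest, overlapped once replicate 3 was added after scaling. For BAT on day 8 the values were 24.8, 26.9 and 25.9 FPKM in the control and 46.1, 43.8 and 47.8 FPKM with EGCG. Since FPKM is per length, the 2 isozymes can be compared within a library, and such a share does not depend on how the library was scaled. Hk2 made up 57.1% ± 1.99 (SD, n = 3) of the summed FPKM of Hk1 and Hk2 in the WAT day 4 control and 62.4% ± 1.02 in the BAT day 4 control. With EGCG these shares were 42.3% ± 2.03 and 44.1% ± 1.24. On day 8 the share was 67.4% ± 2.52 in the BAT control, the highest of any group. It lay between 38.6% and 39.9% on average in the other 3 day 8 groups. The day 8 shares use the values on which Hk2 was chosen, so they are a description only.

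Phosphofructokinase is a tetramer of liver (Pfkl), muscle (Pfkm) and platelet (Pfkp) type subunits. Pfkl was the most abundant per length in every group, with a mean share of 57.4% to 74.1% of the summed FPKM of the 3 genes. In WAT on day 4 it stood at 33.0, 33.1 and 36.8 FPKM in the control and at 138, 127 and 143 FPKM with EGCG, the highest mean of any group, although its libraries overlapped those of the BAT day 8 control. The latter had 129, 129 and 133 FPKM, and with EGCG 55.4, 52.7 and 62.1 FPKM. Treated cells were therefore far above the control in the first case and far below it in the second. The remaining groups lay between 57.7 and 112 FPKM, apart from 34.1 FPKM in WAT day 8 EGCG replicate 3, which was 83.2 after scaling. Pfkp ranged over replicates 1 and 2 from 12.7 FPKM in a WAT day 4 control library to 65.4 FPKM in a BAT day 8 control library, and its mean share of the 3 genes from 14.6% in the BAT day 4 control to 29.6% in BAT day 8 with EGCG. Pfkm varied least, from 10.4 to 23.2 FPKM over the same libraries. Its mean share was 18.6% ± 1.09 in the WAT day 4 control and 8.70% ± 0.415 with EGCG (SD, n = 3).

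**Figure D2:**
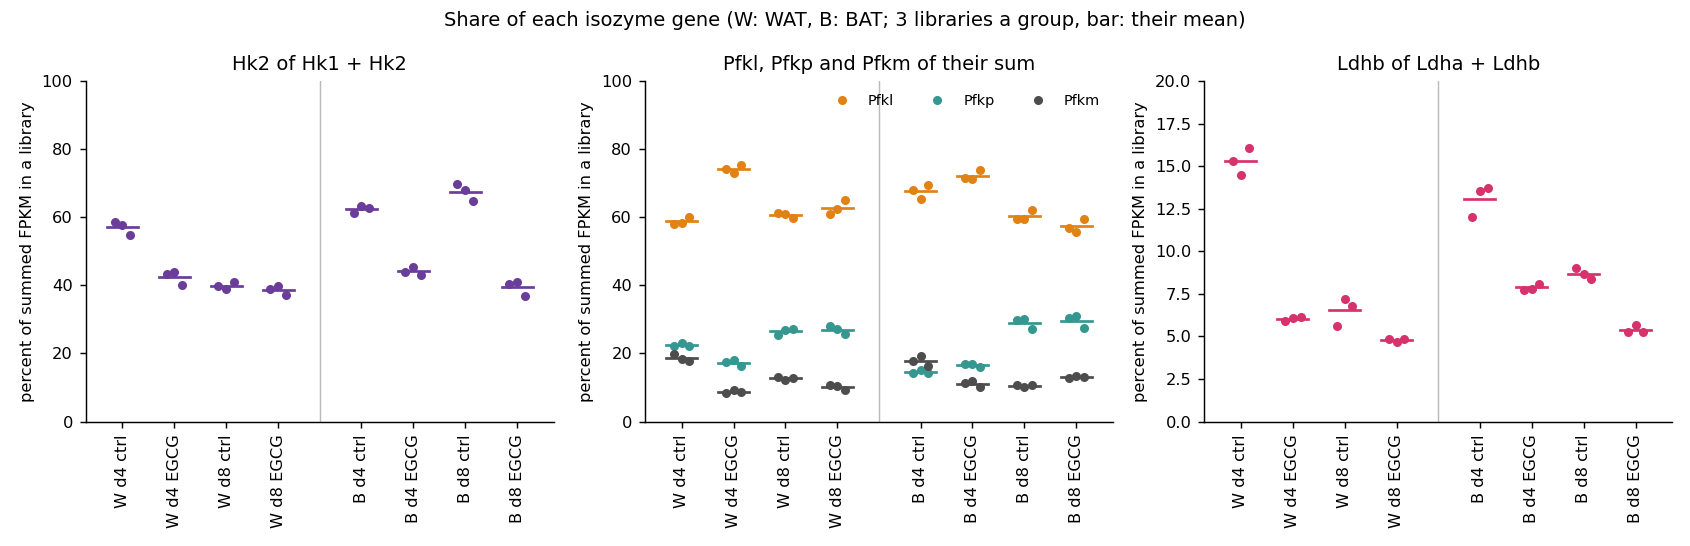
Percent of the summed FPKM of related genes in a library (vertical axes) by group, each point a library (3 a group, all replicates) and each bar their mean, for Hk2 of Hk1 and Hk2, for Pfkl, Pfkp and Pfkm of their sum, and for Ldhb of Ldha and Ldhb. The last axis ends at 20%. The Hk2 share is highest in the BAT day 8 control at 67.4%, where it uses day 8 values on which Hk2 was chosen. The Ldhb share is highest in the day 4 controls at 15.3% and 13.1%.

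Pfkfb3 makes the form of fructose bisphosphate that strongly activates phosphofructokinase. It stood at 109, 104 and 87.9 FPKM in the BAT day 8 control and at 15.4, 16.2 and 14.5 FPKM in BAT cells with EGCG on that day. The BAT day 4 control had 23.4, 24.1 and 22.5 FPKM and the treated cells 15.9, 16.9 and 15.5 FPKM. No other group reached the BAT day 8 control: the rest lay between 13.6 and 32.7 FPKM in replicates 1 and 2. The WAT day 8 control was the most variable, with 18.4, 32.7 and 26.3 FPKM, against 13.9 and 13.6 FPKM in replicates 1 and 2 of the treated cells.

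Aldoa, the aldolase of muscle and most proliferating cells, was the most abundant member per length. It rose from 542, 512 and 628 FPKM in the WAT day 4 control to 840, 786 and 893 FPKM with EGCG, and reached 2262, 2327 and 2475 FPKM in the BAT day 8 control. All treated groups lay between 752 and 893 FPKM, leaving aside WAT day 8 EGCG replicate 3, and so differed less among themselves than the controls did. Pgk1, the first ATP-forming enzyme of the pathway, stood at 161, 161 and 181 FPKM in the WAT day 4 control and at 582, 549 and 642 FPKM with EGCG. It had 656, 717 and 721 FPKM in the BAT day 8 control and 321, 305 and 379 FPKM in the treated cells.

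Ldha encodes the subunit that favours lactate formation and Ldhb the subunit of oxidative tissues such as heart. In the WAT day 4 control Ldha stood at 320.3, 303 and 368 FPKM, and with EGCG at 757, 706 and 849. BAT cells on day 8 had 1123, 1194 and 1255 FPKM in the control and 616, 579 and 725 FPKM with EGCG. The WAT groups of day 8 overlapped, with 621, 668 and 664 FPKM in the control and 638, 644 and 300.1 FPKM with EGCG, the last being 732 FPKM after scaling. Ldhb did not follow Ldha upwards: it had 57.9, 51.2 and 70.5 FPKM in the WAT day 4 control and 47.7, 45.6 and 55.8 FPKM with EGCG. For BAT on day 8 it was 111, 113 and 115 FPKM in the control and 34.0, 34.6 and 40.5 FPKM in treated cells. Its share of the summed FPKM of both genes was 15.3% ± 0.811 in the WAT day 4 control and 6.05% ± 0.119 with EGCG, 13.1% ± 0.933 and 7.87% ± 0.182 in BAT on day 4, and 8.69% ± 0.327 and 5.39% ± 0.223 in BAT on day 8 (SD, n = 3).

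The first question was what EGCG did in each depot on each day. In WAT on day 4, most of the enzymes were higher with EGCG. The change was largest for Hk1 (4.32-fold in mean FPKM, log2 change 2.01 ± 0.056 SE, adjusted p = 5.33e-10 in limma), Pfkl (4.01-fold, 1.97 ± 0.050, adjusted p = 3.47e-10) and Pgk1 (3.51-fold, 1.80 ± 0.064, adjusted p = 2.22e-09). Pfkp rose 2.48-fold, Hk2 2.39-fold and Ldha 2.35-fold, while Aldoa rose 1.54-fold and Pfkm 1.45-fold. Pfkfb3 (log2 change 0.29, 95% interval -0.10 to 0.68) and Ldhb (-0.22, interval -0.48 to 0.04) did not pass the test. Both passed, at the same size, when either WAT day 8 control library was left out of the fit, since all groups share an estimate of the spread (adjusted p = 0.00313 and 0.00317 for Pfkfb3, 0.0089 and 0.00892 for Ldhb in limma). The count was 8 of 10 called, all of them higher, where 53.7% of the 14095 genes tested were called, 34.4% higher and 19.3% lower. The median log2 change was 1.22 for the members and 0.09 for all genes. Replicate 3 had the same direction for all 8. Scaling matters for such counts: 64.1% of all calls were higher as deposited and 47.0% after median-ratio scaling, under which the same number of members, 8, was higher and Ldhb was called lower (-0.34).

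**Figure D3:**
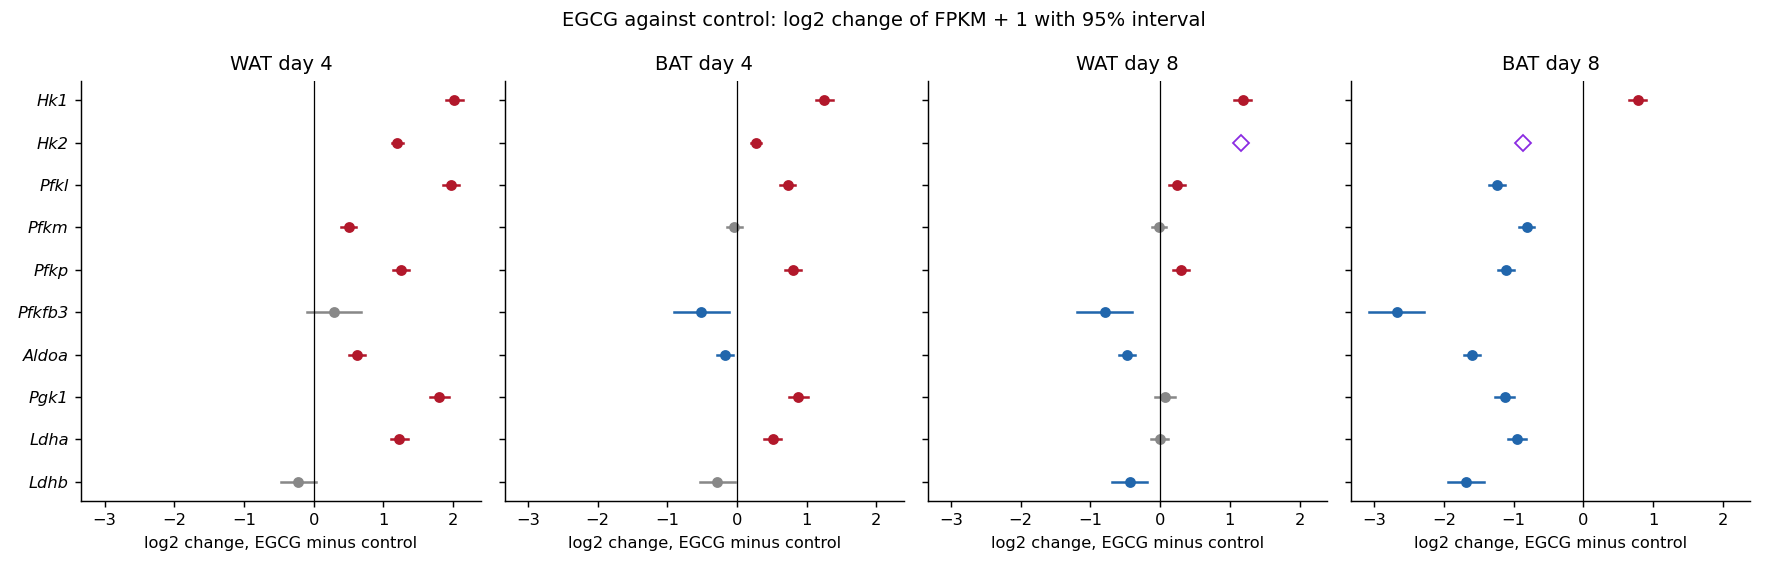
Log2 change of FPKM + 1 with EGCG (horizontal axes, EGCG minus control) for the 10 enzymes in each depot and day, with 95% intervals from limma on replicates 1 and 2. Red marks genes called higher, blue called lower, grey not called, and the open diamond Hk2 on day 8, which was not tested. Points lie mostly to the right in WAT on day 4 and, apart from Hk1, to the left in BAT on day 8.

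In BAT on day 4 the same enzymes mostly rose, by less. Hk1 was 2.49-fold higher (log2 change 1.26 ± 0.056, adjusted p = 1.43e-08 in limma), Pgk1 1.85-fold, Pfkp 1.79-fold, Pfkl 1.66-fold, Ldha 1.43-fold and Hk2 1.22-fold. Pfkfb3 was 1.45-fold lower (adjusted p = 0.0342) and Aldoa 1.12-fold lower (adjusted p = 0.0197), the latter becoming 0.12 higher on the log2 scale under quantile normalization. Pfkm (-0.04, interval -0.14 to 0.07) and Ldhb (-0.28, interval -0.54 to -0.02, adjusted p = 0.068) did not pass, and Ldhb passed at the same size without either WAT day 8 control library. The call of Pfkfb3 was lost without any 1 of the 4 libraries of this comparison (log2 change -0.55 to -0.47), and that of Aldoa without BAT day 4 control replicate 2 or either BAT day 4 EGCG library (-0.17 to -0.13). In all, 8 of 10 were called, 6 higher and 2 lower, where 48.5% of all genes were called, 27.9% higher and 20.6% lower. All 8 directions held in replicate 3.

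In WAT on day 8 the changes were mixed in direction. Hk1 was 2.33-fold higher (log2 change 1.18 ± 0.056, adjusted p = 9.44e-09 in limma). Pfkfb3 was 1.86-fold lower, and Aldoa and Ldhb were each 1.39-fold lower. Aldoa (log2 change -0.47) did not pass under quantile normalization (-0.09, adjusted p = 0.151 in limma). Without WAT day 8 control replicate 1 or replicate 2 the log2 change of Pfkfb3 was -1.20 or -0.40 and that of Ldhb -0.68 or -0.20, each still called, so these sizes rest on a control group whose libraries stood apart. Pfkl (0.24) and Pfkp (0.30) were called higher as deposited but not after median-ratio scaling (0.04 and 0.10). For Pfkm (interval -0.12 to 0.09), Pgk1 (-0.07 to 0.21) and Ldha (-0.13 to 0.12) no change was detected. Of the 9 members tested, 6 were called, 3 higher and 3 lower, beside 63.6% of all genes, 44.7% higher and 18.9% lower. Median-ratio scaling moved the median of all genes by -0.166 and gave 1 member higher (Hk1) and 5 lower (Pfkm, Pfkfb3, Aldoa, Ldha and Ldhb), and the part of all calls that was higher went from 70.3% to 50.6%. Quantile normalization gave 4 higher and 3 lower, with Pgk1 (0.28) and Ldha (0.28) called higher, so that Ldha was called in opposite directions under the 2 scalings (-0.21 under median-ratio scaling). Replicate 3 had the sign of 4 of the 6 calls as deposited and of all 6 after scaling.

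In BAT on day 8 all the members tested except Hk1 were lower with EGCG. Pfkfb3 was 6.75-fold lower (log2 change -2.68 ± 0.18, adjusted p = 6.61e-08 in limma), Ldhb 3.27-fold, Aldoa 3.03-fold, Pfkl 2.39-fold, Pfkp 2.21-fold, Pgk1 2.19-fold, Ldha 1.94-fold and Pfkm 1.82-fold. Hk1 went the other way, 1.74-fold higher (0.78 ± 0.056, adjusted p = 1.14e-07). All 9 members tested were called, 1 higher and 8 lower, beside 72.6% of all genes, 46.5% higher and 26.1% lower. The 9 directions were the same in replicate 3. The median of the 9 was -1.13, against 0.17 for all genes. Under median-ratio scaling the counts of members were the same, the median of all genes moved by -0.158 and the part of all calls that was higher went from 64.0% to 51.0%.

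Whether the depots responded differently was tested by the difference of the EGCG effects, BAT minus WAT. On day 4 the effect was lower in BAT for 9 of 10 members, beside 28.1% of all genes called, 12% higher and 16.1% lower. The differences ran from -0.45 for Pfkp to -1.24 ± 0.071 for Pfkl (adjusted p = 9.04e-07 in limma), and that of Ldhb was -0.06 (interval -0.42 to 0.30). Pfkfb3 lost its call when any 1 of 7 of the 8 libraries compared was left out, WAT day 4 EGCG replicate 2 being the exception (-0.87 to -0.71). After median-ratio scaling 8 were lower, Pfkfb3 no longer passing (-0.71), and the part of all calls that was lower went from 57.3% to 39.6%. On day 8 all 9 members tested were lower in BAT, beside 39.2% of all genes called, 19.4% higher and 19.7% lower. These ran from -0.41 for Hk1 to -1.88 ± 0.25 for Pfkfb3 (adjusted p = 1.53e-04 in limma). The day 8 difference shares its libraries with the choice of Hk2, which is not among the 9, and with the 2 EGCG comparisons of that day.

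Without EGCG, most of the enzymes rose between day 4 and day 8. Adipocyte markers moved over the same time, 8 of 12 higher and 1 lower in the WAT control and 9 of 12 higher in the BAT control. Of 8 macrophage markers tested, 8 were higher in the WAT control, while 1 was higher and 2 were lower in the BAT control. Of 7 skeletal muscle markers tested, 6 were lower in the WAT control and 7 were higher in the BAT control. Of 8 endothelial markers tested, 5 were higher in each control. The part of these cell types in the rise was not tested. In the BAT control all 9 members other than Hk2 were higher on day 8, beside 69.2% of all genes called, 28.7% higher and 40.4% lower. Hk2 stood 2.52-fold higher, without a test. Pfkp rose 4.95-fold (log2 change 2.22 ± 0.052, adjusted p = 9.99e-11 in limma), Pfkfb3 4.49-fold, Pgk1 2.71-fold, Aldoa 2.66-fold, Ldha 2.40-fold and Pfkl 2.16-fold. Hk1, Ldhb and Pfkm rose by 1.89-fold, 1.59-fold and 1.37-fold. Median-ratio scaling moved the median of all genes by 0.136 here and the part of all calls that was higher from 41.5% to 55.3%, with all 9 members still higher. In the WAT control 8 of the 9 rose, by 1.22-fold (Pfkm) to 2.29-fold (Pgk1), beside 61% of all genes called, 27.7% higher and 33.2% lower. Hk2 was 1.09-fold lower there, without a test, a difference of -0.11 on the log2 scale, -0.06 after median-ratio scaling and 0.03 in replicate 3 after that scaling. Ldhb was 1.23-fold lower (adjusted p = 0.0374 in limma) and passed neither under median-ratio scaling (-0.26) nor without WAT day 8 control replicate 1 (-0.07) or WAT day 4 control replicate 1 (-0.22). The rise of Pfkfb3 (1.59-fold, adjusted p = 0.0144) was lost without WAT day 8 control replicate 2 (log2 change 0.18) or WAT day 4 control replicate 2 (0.51).

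With EGCG more enzymes fell than rose between the days. In WAT 6 of the 9 members other than Hk2 were called, all lower on day 8, beside 59.5% of all genes called, 31.8% higher and 27.7% lower. The largest steps were in Pfkl (1.75-fold lower), Pgk1 (1.47-fold) and Ldhb (1.46-fold). Hk1, Pfkp and Aldoa did not pass the test, and Aldoa was called higher under quantile normalization (0.19). Of those called, Pfkfb3 was lost without WAT day 4 EGCG replicate 1 or either WAT day 8 EGCG library (log2 change -0.52 to -0.41), and Ldha without replicate 1 of either group (-0.14 and -0.18), its direction turning under quantile normalization (0.11). In BAT 7 of the 9 were called, 2 higher (Hk1 1.32-fold, Pfkp 1.25-fold) and 5 lower (Pfkl 1.84-fold, Ldhb 1.69-fold, Pgk1 1.50-fold, Pfkm 1.29-fold, Ldha 1.15-fold), beside 58% of all genes called, 29.7% higher and 28.2% lower. Hk2 was 1.12-fold higher, without a test. Ldha was lost there without BAT day 4 EGCG replicate 1 (-0.19) or BAT day 8 EGCG replicate 2 (-0.16). These comparisons use the same day 4 and day 8 groups as the EGCG comparisons and are not independent of them.

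**Figure D4:**
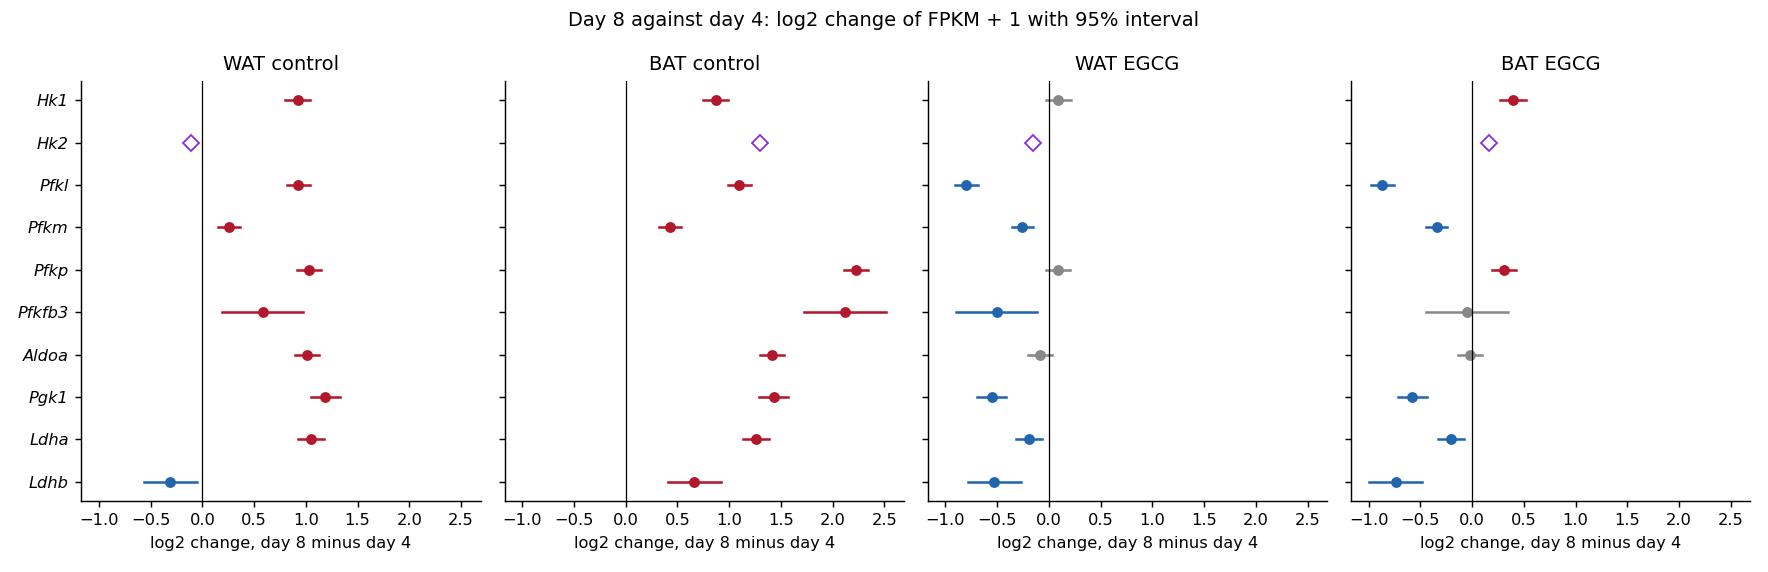
Log2 change of FPKM + 1 from day 4 to day 8 (horizontal axes, day 8 minus day 4) for the 10 enzymes in control and EGCG cells of each depot, with 95% intervals from limma. Red marks genes called higher, blue called lower and grey not called. The open diamond is Hk2, shown without a test because its day 8 libraries were used to choose it. Most points are right of 0 in the controls and left of 0 or near it with EGCG.

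Brown and white control cells were compared on each day. On day 4 the BAT cells were higher in 9 of 10 members, by 1.25-fold (Hk1) to 1.81-fold (Pfkl, log2 change 0.84 ± 0.050, adjusted p = 2.62e-07 in limma), beside 55.8% of all genes called, 41.4% higher and 14.4% lower. Pfkp did not differ beyond the spread (0.02, interval -0.09 to 0.14). After median-ratio scaling, which moved the median of all genes by -0.138 and the part of all calls that was higher from 74.3% to 50.6%, 6 members were higher, and Hk1, Pfkfb3 and Ldhb no longer passed. Pfkfb3 was also lost without any 1 of the 4 libraries (0.46 to 0.60), and Ldhb without replicate 2 of either depot (0.28 and 0.29). On day 8 all 9 members other than Hk2 were higher in BAT, beside 53.6% of all genes called, 31.6% higher and 22% lower. Hk2 stood 4.05-fold higher, without a test. Pfkfb3 was 4.17-fold higher (2.07 ± 0.18, adjusted p = 2.06e-06 in limma), Ldhb 2.53-fold, Pfkp 2.37-fold, Aldoa 2.16-fold and Pfkl 2.02-fold. Leaving out either WAT day 8 control library gave log2 changes of 1.67 and 2.47 for Pfkfb3 and of 1.10 and 1.58 for Ldhb. Mature adipocyte markers were also higher in BAT, 10 of 12 on each day with 1 lower on day 4, and their part in the depot difference was not tested.

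Other genes of glucose use were counted over lists of other glycolysis steps (18 of 23 genes tested), glucose and lactate transport (6 of 6), pyruvate entry into mitochondria (14 of 14) and the pentose phosphate path with gluconeogenesis (8 of 11). Of the other glycolysis steps, 12 rose in WAT on day 4. They included Gpi1 (phosphoglucose isomerase, 3.17-fold), Eno1 (enolase, 3.15-fold) and the pyruvate kinase gene annotated as Pkm2 (3.63-fold). The value of Pkm2 covers the whole gene and does not separate its isoforms. Only Pfkfb1, a liver and muscle relative of Pfkfb3, fell (log2 change -1.49). In BAT on day 4, 11 rose and 2 fell, among them Pfkfb1 (-1.50). In WAT on day 8, 8 rose and 6 fell. In BAT on day 8, 10 fell, among them Gpi1 (log2 change -1.83) and Tpi1 (-1.03), and 5 rose: Eno2, the neuronal enolase, 4.01-fold, Bpgm (0.71), Pfkfb4 (0.38), Adpgk (0.29) and Pfkfb2 (0.23). The medians of the list, for WAT and BAT on day 4 and then on day 8, were 0.67, 0.38, 0.04 and -0.38, where all genes had 0.09, 0.03, 0.17 and 0.17. In the same order, 34.4%, 27.9%, 44.7% and 46.5% of all genes were called higher, and 19.3%, 20.6%, 18.9% and 26.1% lower. The 8 of 18 that rose in WAT on day 8 were thus near the share of all genes. Between the days 12 of these genes rose in the WAT control and 11 in the BAT control. Adpgk fell in both (-0.62 and -1.01), and Eno2 fell in BAT (-0.71). With EGCG the counts were 2 higher (Pgam1 and Pfkfb4) and 9 lower in WAT, and 4 higher (Pgam1, Bpgm, Eno2 and Eno3) and 6 lower in BAT. Of all genes, 27.7% and 28.7% were called higher in the controls (WAT and BAT), and 33.2% and 40.4% lower. With EGCG 31.8% and 29.7% of all genes were called higher, and 27.7% and 28.2% lower. The part of the list called between the EGCG days was 61.1% in WAT and 55.6% in BAT, near the 59.5% and 58% of all genes.

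Among the transporters the basal glucose transporter and the insulin-regulated transporter went opposite ways. Slc2a1 (GLUT1) was called higher in all 4 EGCG comparisons, 4.78-fold in WAT and 2.49-fold in BAT on day 4, 3.03-fold in WAT on day 8 and by 0.69 on the log2 scale in BAT on day 8. Slc2a4 (GLUT4), the insulin-regulated transporter, was lower in all 4, with log2 changes of -2.24 and -2.81 on day 4 and -4.88 and -5.62 on day 8 (WAT and BAT). Slc16a3, the lactate exporter MCT4, rose 9.71-fold in WAT and 2.77-fold in BAT on day 4 and 2.28-fold in WAT on day 8, and fell in BAT on day 8 (-0.42). Slc2a3 (GLUT3) was 8.89-fold higher in WAT on day 4, and Bsg, the chaperone of lactate transporters, was 2.04-fold higher there and fell by 1.97 on the log2 scale in BAT on day 8.

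The list of pyruvate entry into mitochondria also holds the kinases Pdk1 to Pdk4, which shut off pyruvate dehydrogenase. Most of its genes moved against the enzymes on day 4. There 10 of 14 fell in each depot, where 19.3% and 20.6% of all genes were called lower (WAT and BAT), and 2 rose in each: Pdk1, a kinase that shuts off pyruvate dehydrogenase (2.00 in WAT, 0.52 in BAT), and its relative Pdk3 (0.44 and 0.31). Pdk2, of the same kinases, averaged 10.6 FPKM in WAT and 17.4 in BAT in the day 4 controls, and 5.04 and 8.66 with EGCG. On day 8 13 of 14 fell in each depot, beside 18.9% and 26.1% of all genes, and only Pdk3 rose (0.60 and 0.43). Pdk1, Pdk2 and Pdk4 were thus among the genes that fell, with log2 changes of -2.12 (Pdk1) and -2.61 (Pdk2) in BAT. Pcx, pyruvate carboxylase, fell in all 4 comparisons, from 265 ± 54.3 to 13.3 ± 0.605 FPKM (SD, n = 2) in WAT on day 8. The median log2 changes were -0.64 and -0.92 on day 4 and -1.16 and -1.98 on day 8 (WAT and BAT). Of the pentose phosphate and gluconeogenesis genes, 8 of 8 tested fell in BAT on day 8 and 7 in WAT on day 8, where Pck2 rose (0.18). On day 4, 7 fell in BAT, while in WAT Pgd and Pck2 rose (0.64 and 0.34) and Pgls, Taldo1 and Rpia fell (-0.22, -0.63 and -0.22).

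**Figure D5:**
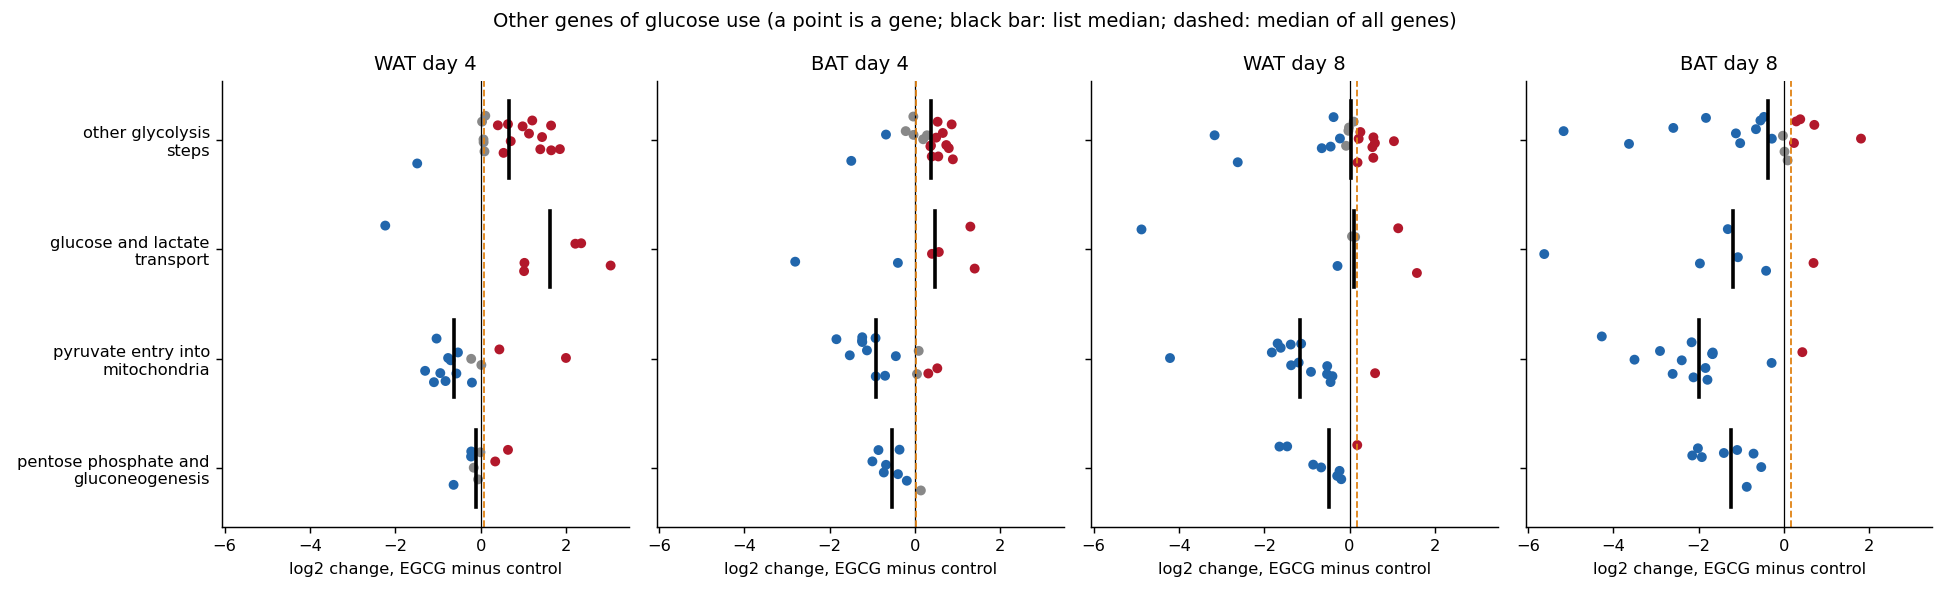
Log2 change with EGCG (horizontal axes, EGCG minus control) of the tested genes of 4 lists of glucose use, each point a gene, with genes called higher in red, called lower in blue and not called in grey. Black bars are list medians and the dashed line the median of all genes tested. Glycolysis steps and transporters lie mostly to the right on day 4, and genes of pyruvate entry into mitochondria lie mostly to the left in all 4 panels.

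Cell type markers moved with these results. All 12 mature adipocyte markers fell with EGCG in each depot on each day, with medians of -2.54 and -2.18 on day 4 and -4.68 and -4.63 on day 8 (WAT and BAT). Their summed level went from 3926 to 4332 FPKM in the WAT day 4 control to 1139 to 1189 with EGCG, and from 11156 to 11242 FPKM in the BAT day 8 control to 500.1 to 511 with EGCG. The sum of 10 macrophage markers was higher with EGCG on day 4 (197 to 202 against 76.5 to 81.6 FPKM in WAT, 382 to 423 against 177 to 187 in BAT). It was lower with EGCG on day 8 (57.6 to 61.2 against 122 to 147 in WAT, 60.2 to 61.5 against 122 in BAT). Most of each sum was Lyz2, which averaged 162 FPKM in WAT and 334 in BAT with EGCG on day 4. Of the 8 tested, 7 in WAT and 5 in BAT were called higher on day 4, and 8 and 7 lower on day 8. Of all genes, 34.4% and 27.9% were called higher on day 4 (WAT and BAT), and 44.7% and 46.5% on day 8. Called lower were 19.3% and 20.6% on day 4, and 18.9% and 26.1% on day 8. The sum of 9 endothelial markers was higher with EGCG in every pair of groups, at most 52.4 FPKM. Of the 8 tested, 7 were called higher in each depot on day 4. On day 8 there were 4 higher and 1 lower in WAT, and 6 higher and 1 lower in BAT, the lower being Cldn5. The 4 of 8 in WAT were near the share of all genes called higher there. The 6 erythroid markers summed to at most 0.404 FPKM, and the 12 skeletal muscle markers summed to 22.5 to 150.3 FPKM. The latter were higher with EGCG in WAT on day 4 (146 to 150.3 against 86.2 to 88.5 FPKM, 6 of 7 tested called higher) and lower with it in BAT on day 8 (47.8 to 47.9 against 63.1 to 66.5 FPKM, 3 of 7 called lower). The part of these cell types in the changes of the enzymes was not tested, and in such bulk samples fewer cells of a type and less RNA per cell cannot be told apart.

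The genes most like Hk2 over the 16 libraries, by Pearson correlation of log2(FPKM + 1) among 8703 genes with a mean of at least 5 FPKM, were Rundc1 (r = 0.944), Msi2 (0.941) and Smcr7l (0.939). For Ldha they were Gm5559 (0.985), Tpi1 (0.983) and the pseudogene Gm7336 (0.982). The libraries fall into 8 groups that share depot, day and treatment, so these values describe a likeness of pattern and carry no p.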

How the data were processed

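RNA of 24 libraries was sequenced, 3 in each of 8 groups set by depot, day and treatment in the labels. The authors deposited FPKM values (reads per gene, scaled to gene length and to reads on genes) in 2 separately made tables, replicates 1 and 2 in the first and replicate 3 in the second. The submitters' processing notes name FastQC 0.11.9, HISAT2 2.2.0, HTSeq 0.11 and mm9, and whether counting used the strand is not given in the sources used here. All 37310 gene lengths equalled the longest GENCODE vM1 transcript, and at least 99.94% of values above 0 in a library were whole reads at a tolerance of 0.01. The paper supplied with the series describes another experiment, so its methods were not used.

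The members and the gene lists were chosen with earlier results of these data known. limma 3.58.1 (R 4.3.3) was fitted to log2(FPKM + 1) of the 16 libraries of replicates 1 and 2, with 1 mean per group, for 14095 genes at FPKM of at least 1 in at least 2 libraries. The fit had 11.4 degrees of freedom, 8 of them residual. Tests were two-sided, with Benjamini-Hochberg adjustment over all genes in each of 12 comparisons and a threshold of 0.05. The pseudocount understates fold changes of low genes. A gene with fewer than 3 reads, 0.0284 to 0.0380 FPKM for a gene of 2 kb in replicates 1 and 2, cannot be told from 0, which covers counting error only. On simulated reads for EGCG against control in WAT on day 4 (14095 genes, 50 changed at each fold), the fit recovered 27 at 1.3-fold, 40 at 1.5-fold, 44 at 2-fold and 48 at 4-fold. The simulation gave all genes and libraries the same dispersion, and all groups the same means apart from these changes. It leaves out the uneven spread of the real groups, so these numbers check the code and do not measure the power of the real tests. Copies of the coding sequences were searched with minimap2 2.31-r1302.

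All 10 members were named in every comparison. Listed genes were named if called with a mean of at least 5 FPKM in the higher group and a log2 change of at least 1 in size, or if a count of 5 or fewer was given. The alternatives were another pseudocount, no filter, median-ratio scaling, quantile normalization, voom on the recovered reads, the replicate number as a block, both tables together with the table as a term, and leaving out each library. Hk2 was left out of the counts of all comparisons that use day 8 libraries. Values of a listed gene are not reported here, although counts and medians of the lists include it.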

Additional observations from a re-analysis of the deposited data

Results flagged for a closer look

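The EGCG effect differed between the depots for most enzymes, by the test of the difference itself (BAT minus WAT, limma, adjusted p under 0.05). On day 4 the differences of the log2 changes were -0.76 for Hk1, -0.93 for Hk2, -1.24 for Pfkl, -0.54 for Pfkm, -0.45 for Pfkp, -0.80 for Pfkfb3, -0.79 for Aldoa, -0.92 for Pgk1 and -0.72 for Ldha. In each of these the effect in BAT was the lower. The difference took 3 forms on that day: smaller rises in BAT, as for Hk1, Hk2, Pfkl, Pfkp, Pgk1 and Ldha, a rise in WAT beside a small fall in BAT for Aldoa (-0.17, a call lost without any 1 of 3 libraries, and 0.12 under quantile normalization), and no called change in BAT for Pfkm or in WAT for Pfkfb3.

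On day 8 the differences were -0.41 for Hk1, -1.48 for Pfkl, -0.80 for Pfkm, -1.42 for Pfkp, -1.88 for Pfkfb3, -1.13 for Aldoa, -1.20 for Pgk1, -0.95 for Ldha and -1.24 for Ldhb. Hk1 was the member that was called higher in both depots and still differed between them. Libraries behind the day 8 differences include the WAT day 8 controls, whose replicates 1 and 2 stood apart.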

How the results depend on the processing

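The replicate number as a block changed no call: the counts of members called were 8, 6, 8 and 9 for EGCG (WAT day 4 and day 8, BAT day 4 and day 8) with and without it, and 9, 9, 6 and 7 between the days, 9 and 9 between the depots and 9 and 9 for the difference of the EGCG effects. Hk2 is left out wherever day 8 is compared. Deviations of equally numbered libraries were not correlated (28 pairs of groups, r from -0.079 to 0.081). No pairing by number was seen, but this check cannot exclude that equally numbered libraries share an animal or culture. Calls of members changed in 0 of 112 cases with a pseudocount of 0.1, 1 with voom, 6 without the filter, and 11 each with median-ratio scaling and quantile normalization. Both tables together changed 36, and 2 once WAT day 8 EGCG replicate 3 was left out. With that library as deposited, members called fell to 4 for EGCG in BAT on day 4, 2 for the BAT EGCG days, 4 for the depots on day 4, and 1 and 3 for the difference of EGCG effects on day 4 and day 8. Leaving out single libraries gave 8 to 10 and 6 (EGCG in WAT, day 4 and day 8), 6 to 9 and 9 (BAT), 8 to 9 and 9 (control days, WAT and BAT), 4 to 6 and 6 to 7 (EGCG days), 7 to 9 and 9 (depots), and 8 to 9 and 9 (difference of effects).

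Direction turned only in changes of at most 0.30 in size on the log2 scale of the main fit. Some of these had been called: Pfkl (0.24) and Pfkp (0.30) with EGCG in WAT on day 8, Aldoa with EGCG in BAT on day 4 (-0.17), and Ldha between the days in WAT with EGCG (-0.19). In WAT on day 8 with EGCG, Pgk1 was -0.14 under median-ratio scaling, -0.29 with both tables, -0.060 with both tables scaled, and -0.0090 to 0.14 without single libraries. Pfkl was -0.13 and Pfkp -0.15 with both tables, and Pfkm -0.036 to 0.0027 without single libraries. Ldha was called higher under quantile normalization (0.28) and lower under median-ratio scaling (-0.21). It was 0.041 with both tables but without WAT day 8 EGCG replicate 3, and -0.059 to 0.047 without single libraries. Between the days with EGCG, Hk1 was -0.35 and Pfkp -0.32 in WAT with both tables, and quantile normalization gave Pfkp -0.021, Aldoa 0.19 and Ldha 0.11 in WAT and Aldoa 0.092 in BAT. It also gave 0.12 for Aldoa with EGCG in BAT on day 4. Pfkp between the depots on day 4 was -0.14 with median-ratio scaling, -0.14 with both tables scaled, -0.11 with quantile normalization, and -0.0031 to 0.050 without single libraries. Ldhb in the difference of effects on day 4 was 0.029 under median-ratio scaling, 0.0017 with both tables scaled, and -0.15 to 0.028 without single libraries. The cause of these turns was not tested. All 40 mean isoform shares moved by less than 1 SD when taken over replicates 1 and 2 alone.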
